A study of Homo sapiens with 6 samples.

Results

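Pericentromeric 6mA peaks were defined here as the peaks whose summit lay within 5 Mb of the midpoint of a centromere, on the 17 chromosomes for which a window was set (chromosomes 1 to 12, 16 to 20, build hg19). They numbered 985 of 30451 peaks in control replicate 1, 1081 of 33410 in control replicate 2, 1265 of 38847 in si-N6AMT1 replicate 1 and 1337 of 40844 in si-N6AMT1 replicate 2. That made 4668 of 143552 peaks in all 4 libraries, or 2308 of 72537 regions once overlapping peaks were merged. N6-methyladenine (6mA) is a modified adenine base, and 6mA-IP-seq pulls down sheared, denatured DNA with an antibody against it and sequences the fragments. The DNA came from MDA-MB-453, a widely used line of human breast cancer cells. Control cells received a scramble siRNA and si-N6AMT1 cells an siRNA against N6AMT1, a gene studied as a 6mA methyltransferase, both at 10 nM for 48 h with the same transfection reagent. Each group had 2 immunoprecipitated libraries and 1 input library, and the 4 peak lists of the immunoprecipitated libraries were analysed. The extent of the knockdown was not analysed here, since peak lists do not measure transcripts.

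Pericentromeric DNA flanks the centromere, the chromosome region on which the kinetochore assembles at cell division. In human cells the centromere itself is built of alpha satellite, a tandem repeat of roughly nucleosome-sized units. The sequence beside it often holds other satellites, among them long arrays built from the 5-base unit GAATG, which reads CATTC on the other strand, and it is largely packed as heterochromatin. Much of this sequence is missing from hg19, in which each centromere is a run of unknown bases. The gap was 3 to 3.2 Mb long on 14 of the chromosomes but 21.05 Mb on chromosome 1, 18.15 Mb on chromosome 9 and 11.1 Mb on chromosome 16, where the windows held sequence of the short arm alone. The windows held 104 Mb of assembled sequence, 61.4% of their length.

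Of the 4668 summits, 3893 (83.4%) lay in no tandem repeat, and the sequences below show the repeats that set the windows apart beside examples without a repeat. The reference sequence (hg19, plus strand, 120 bases around the summit) of 3 peaks in 5-bp arrays is given first, because such arrays held the widest peaks of the windows, and capitals mark each CATTC or GAATG.
Chromosome 10 array beside the gap, chr10:42355328-42355447: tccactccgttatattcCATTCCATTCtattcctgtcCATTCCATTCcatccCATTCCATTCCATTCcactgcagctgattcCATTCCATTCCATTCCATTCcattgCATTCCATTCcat
Chromosome 20 array, chr20:29807940-29808059: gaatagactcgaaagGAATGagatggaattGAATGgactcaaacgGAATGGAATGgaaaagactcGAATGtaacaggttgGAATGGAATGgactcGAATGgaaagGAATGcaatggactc
Chromosome 17 array, chr17:25267414-25267533: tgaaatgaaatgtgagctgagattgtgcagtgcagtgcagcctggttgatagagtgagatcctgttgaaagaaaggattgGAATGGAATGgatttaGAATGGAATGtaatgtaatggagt
The pentamers came as CATTC in the chromosome 10 array beside the gap, and as GAATG in the chromosome 20 and chromosome 17 arrays. The chromosome 10 sequence held 13 of them, the chromosome 20 sequence 9 and the chromosome 17 sequence 4.

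A second kind of pentamer-bearing sequence occurred at the summits with the highest background. At the highest-ranked region called only in si-N6AMT1 (each region took the worst of its ranks by −log10 q in the lists that held it), the 1000 bases around the summit matched themselves best at a shift of 26 bp, and capitals again mark GAATG.
Chromosome 10 summit with a 26-bp period, chr10:42387197-42387316: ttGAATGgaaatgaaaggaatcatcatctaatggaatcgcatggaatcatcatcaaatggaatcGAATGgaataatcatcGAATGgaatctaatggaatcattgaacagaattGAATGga
Summits outside arrays were commonly rich in purines on 1 strand. The next sequences are a region called only in control, in an intron of CNTN1, a neuronal cell adhesion gene, and a region called only in si-N6AMT1, and capitals mark the longest run of pyrimidines.
CNTN1 intron, chr12:41298100-41298219: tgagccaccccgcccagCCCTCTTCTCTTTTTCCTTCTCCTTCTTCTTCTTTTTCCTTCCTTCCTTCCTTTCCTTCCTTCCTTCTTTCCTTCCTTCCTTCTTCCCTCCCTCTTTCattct
Chromosome 12 intergenic, chr12:38533804-38533923: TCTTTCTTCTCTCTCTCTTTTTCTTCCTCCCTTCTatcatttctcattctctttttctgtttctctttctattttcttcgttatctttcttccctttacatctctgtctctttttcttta
The CNTN1 run was 98 bases long and the other 35. Both regions were classed as having no tandem repeat, although the CNTN1 run holds short repeats of CCTT. By the same rank, the first region called in all 4 libraries lay in an intron of KCNJ12, an inward rectifier potassium channel gene, where capitals mark CATTC. It was classed with the other tandem repeats, not with the 5-bp arrays, and matched itself best at a shift of 8 bp. The next lay in an intron of EGFR, the epidermal growth factor receptor gene, where capitals mark stretches of alternating A and C.
KCNJ12 intron, chr17:21310615-21310734: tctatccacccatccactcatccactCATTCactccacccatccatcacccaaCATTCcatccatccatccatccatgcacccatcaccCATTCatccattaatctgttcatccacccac
EGFR intron, chr7:55272359-55272478: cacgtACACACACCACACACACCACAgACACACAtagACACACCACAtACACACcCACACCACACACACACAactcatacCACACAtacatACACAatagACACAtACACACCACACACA
For contrast, alpha satellite-like sequence is shown by the position of the windows (taken every 10 kb) at which the self-match at the length of an alpha satellite unit was best. Capitals mark the bases that its 2 neighbouring units share.
First repeat unit, chr11:55014830-55015000: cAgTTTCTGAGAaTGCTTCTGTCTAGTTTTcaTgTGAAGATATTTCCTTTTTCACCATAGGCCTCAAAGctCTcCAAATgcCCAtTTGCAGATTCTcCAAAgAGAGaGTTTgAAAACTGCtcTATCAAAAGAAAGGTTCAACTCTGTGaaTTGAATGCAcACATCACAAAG
Second repeat unit, chr11:55015001-55015171: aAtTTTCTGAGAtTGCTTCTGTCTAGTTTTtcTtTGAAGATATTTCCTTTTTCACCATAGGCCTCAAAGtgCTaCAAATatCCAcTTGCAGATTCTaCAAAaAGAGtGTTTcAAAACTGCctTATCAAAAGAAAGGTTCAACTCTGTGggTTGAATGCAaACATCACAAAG
The 2 units matched at 87.7% of positions. No peak of any library covered this position.

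To ask how often peaks fell in such DNA, each summit was classed by the self-match of the surrounding 1000 bases, and so was a position every 10 kb of assembled sequence. A sequence was called tandem when at least 0.5 of its bases matched at some shift of up to 400 bp. Repeats that fill only a small part of the 1000 bases fall in the class with no tandem repeat. In the windows, 355 of 4668 summits lay in 5-bp arrays, or 7.60% (95% Wilson interval 6.88% to 8.40%), against 43 of 10438 grid positions, or 0.412% (0.306% to 0.554%). The share of summits was thus 18.5 times that of the sequence. Other tandem repeats held 418 summits (8.95%) against 1.23% of grid positions. Sequence with the period of alpha satellite showed the opposite. It held 408 grid positions (3.91%) but 2 summits (0.0428%), a ratio of 0.0110. These intervals cover counting error only, and summits of different libraries often mark the same site.

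The same pattern was seen from the side of the genome. The 43 grid positions in 5-bp arrays lay on 7 chromosomes, and neighbouring positions can belong to the same array. Of these 43, 15, 15, 18 and 19 lay under a peak in control replicates 1 and 2 and si-N6AMT1 replicates 1 and 2, and 22 did so in at least 1 library. Of the 9859 positions with no tandem repeat, 38, 41, 55 and 55 did, and 104 (1.05%) did so in at least 1 library. Of the 408 positions with the period of alpha satellite, spread over 16 chromosomes, 0 lay under a peak in any library, which allows a share of up to 0.735%. Outside the windows, 4 of 203 such positions lay under a peak. The 31 bases at the position occurred more than once in the assembled genome for 37.7% of the alpha satellite-period positions, 23.3% of the 5-bp positions and 26.6% of those with no tandem repeat. The part of repeated sequence in these differences was not tested.

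**Figure D1:**
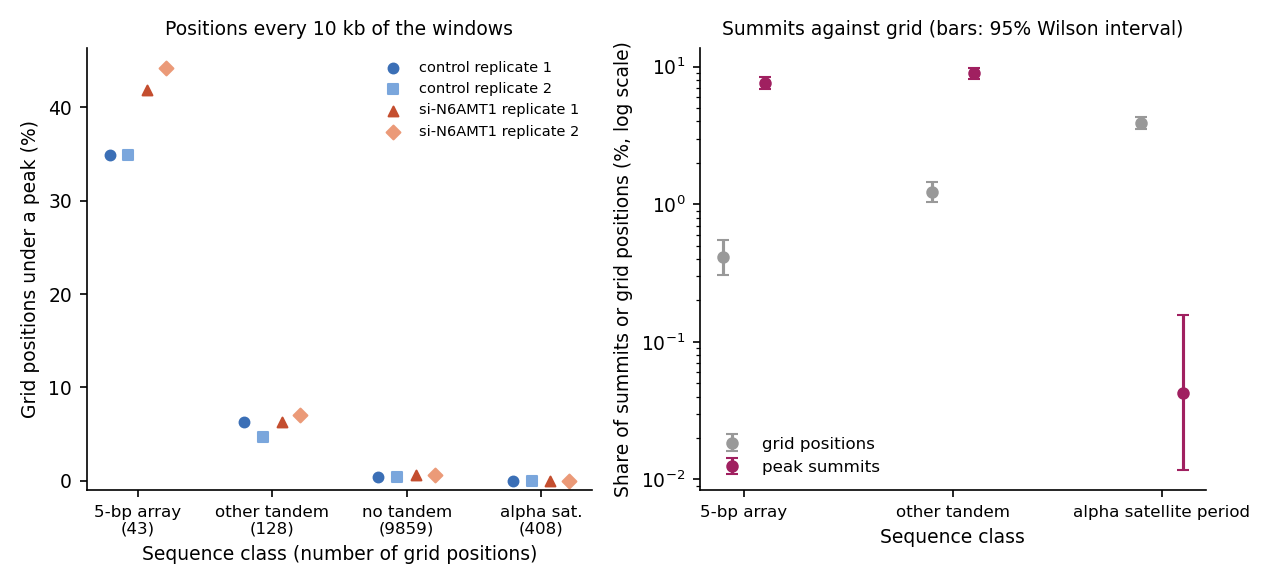
Left: percent of positions taken every 10 kb of the pericentromeric windows that lay under a 6mA peak, by sequence class (alpha sat., the period of alpha satellite), with 1 point per library and the number of positions under each class. Right: percent of all window summits and of all grid positions in each tandem class on a log axis, with 95% Wilson intervals. Summits exceeded the grid in 5-bp arrays (7.60% against 0.412%) and fell below it in sequence with the period of alpha satellite (0.0428% against 3.91%).

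The CENP-B box, the site in alpha satellite that the centromere protein CENP-B recognises, gave the same picture. A match on either strand in the 1000 bases centred on the position or summit was found at 61 of the 10438 grid positions of the windows and at 3 of the 4668 summits. The 200 bases centred on the summit held at least 5 pentamers (CATTC or GAATG, which are each other's reverse complement) at 369 summits (7.90%). The same held for 0.584% of grid positions in the windows and 0.0708% of grid positions elsewhere.

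Peaks elsewhere in the genome also fell in tandem repeats more often than the sequence did, so the comparison was made against them in each library. The share of summits in tandem repeats was higher in the windows than elsewhere by 10.2 ± 1.3 percentage points (SD, n = 4), in 4 of 4 libraries. An exact two-sided sign-flip test over the libraries gave p = 0.125, the smallest value that 4 libraries allow. Most of the difference came from 5-bp arrays, with 7.08 ± 0.87 percentage points, and 3.16 ± 0.72 came from other tandem repeats. Relative to the sequence at hand, 5-bp arrays were over-represented among summits elsewhere as well, with 0.575% of summits against 0.0447% of grid positions, a ratio of 12.9. Other tandem repeats were less over-represented in the windows than elsewhere, at ratios of 7.30 and 13.7, and 7.03% of such grid positions in the windows lay under a peak in at least 1 library against 18.8% elsewhere. Such sequence made up 1.23% of grid positions in the windows and 0.428% elsewhere. For the period of alpha satellite the ratio elsewhere was 1.43, with 146 of 138864 summits.

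Within the windows the repeat units differed between classes. Among 100 merged regions in 5-bp arrays, AATGG, a rotation of GAATG, was the commonest unit in 86, followed by AAATG in 6 and AACAC in 3. Among the other tandem regions with a unit of up to 6 bases, AAAG led with 18, followed by ATCC with 14, AC with 10 and AAGG with 9. Over the 200 bases at the summit, the richer of purines and pyrimidines made up a median of 68% of bases at window summits, 67% at summits elsewhere and 55.5% at grid positions of the windows. It was 73.5% in 5-bp arrays, 74% in other tandem repeats and 67% at window summits with no tandem repeat. A high share of purines on 1 strand was therefore a feature of window summits inside and outside the tandem classes. The median A+T content was 62.5% at window summits and 60.5% at the grid positions.

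To ask whether pericentromeric DNA as a whole carried more or fewer peaks than the chromosome arms, densities per assembled Mb were compared. In control replicates 1 and 2 the windows held 9.44 and 10.4 peaks per Mb, and the rest of the same chromosomes 11.02 and 12.1. In si-N6AMT1 replicates 1 and 2 the windows held 12.1 and 12.8, and the rest 14.0 and 14.7. The ratio of window to rest was 0.856, 0.858, 0.863 and 0.869, below 1 in 4 of 4 libraries, with p = 0.125 in the exact sign-flip test. Without peaks in 5-bp arrays, a setting chosen after seeing the data, the mean ratio fell from 0.862 to 0.800.

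Density did not climb towards the gap. In the control libraries it was 9.43 peaks per Mb at 1 to 2 Mb from the midpoint, 10.5 at 2 to 3 Mb, 9.22 at 3 to 4 Mb and 10.2 at 4 to 5 Mb, and in the si-N6AMT1 libraries 11.9, 12.6, 11.9 and 13.2. What changed with distance was the kind of sequence. The share of summits in 5-bp arrays was 25.3% at 1 to 2 Mb, 11.6% at 2 to 3 Mb, 2.79% at 3 to 4 Mb and 0.903% at 4 to 5 Mb. No sequence was assembled within 1 Mb of a midpoint. The limit of 5 Mb was no natural border: the last 100 kb inside it held 134 peaks with a median fold enrichment of 6.84, and the first 100 kb outside 168 peaks with a median of 6.79. Fold enrichment divides the fragments at the summit by those of the background, after 1 is added to each count.

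**Figure D2:**
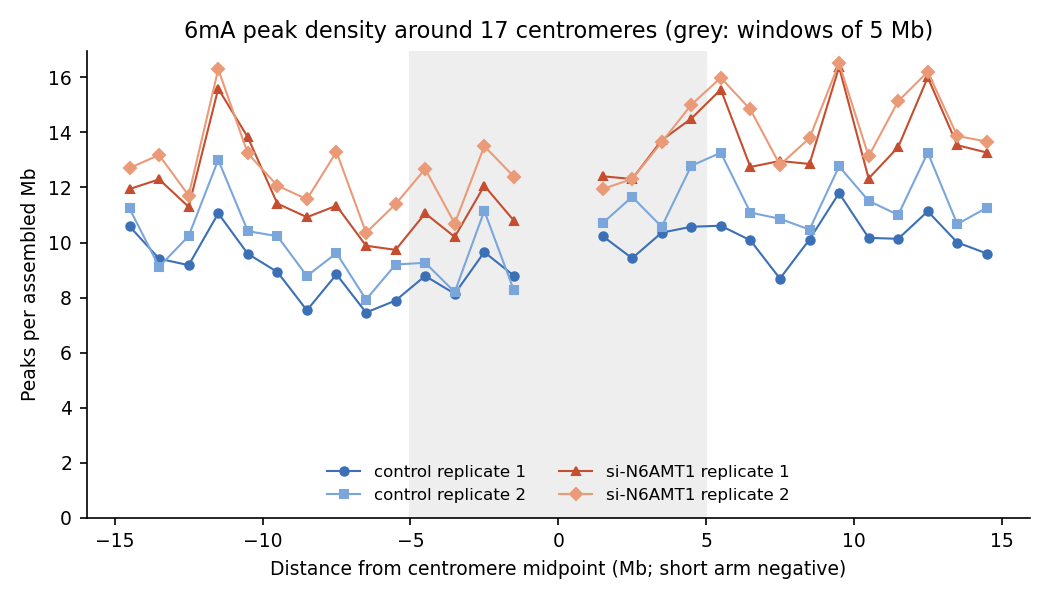
6mA peaks per assembled Mb against the distance from the centromere midpoint (Mb, short arm negative) in bins of 1 Mb, summed over 17 chromosomes, with 1 line per library and the windows of 5 Mb in grey. Both si-N6AMT1 lines lie above both control lines in most bins, and density within the windows stays between 8.14 and 15 peaks per Mb.

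The flat mean hid large differences between chromosomes. In 6 windows the density exceeded that of the rest of the chromosome in all 4 libraries, in 7 it was lower in all 4, and 4 were mixed. The highest ratio was that of chromosome 4, at 1.80, 1.88, 2.29 and 2.08, where the libraries called 74, 85, 112 and 113 peaks. Chromosome 10 followed at 1.34, 1.32, 1.46 and 1.49 and chromosome 2 at 1.38, 1.28, 1.24 and 1.21. The lowest were chromosome 9, at 0.201, 0.210, 0.174 and 0.197, chromosome 5, with a mean of 0.259, and chromosome 3, with a mean of 0.292. On chromosome 9 this rested on 7, 8, 8 and 9 peaks in 2.87 assembled Mb. The densest window was that of chromosome 20, with 130, 128, 161 and 148 peaks and a mean of 21.0 peaks per Mb, on a chromosome whose rest was dense as well (17.8 per Mb).

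Arrays set the rank of some of these windows and not of others. Chromosome 10 had 154 peaks in 5-bp arrays over the 4 libraries, and without them its mean ratio was 0.774 instead of 1.40. Chromosome 4 had 75 and kept a ratio of 1.63. Chromosome 2 had 43 and came to 1.03, chromosome 16 had 30 and came to 0.801, and chromosome 20 had 18 and kept 1.15. The windows of chromosomes 1 and 18 had 0 array peaks and mean ratios of 1.18 and 1.21. Leaving arrays out was chosen after seeing the data.

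**Figure D3:**
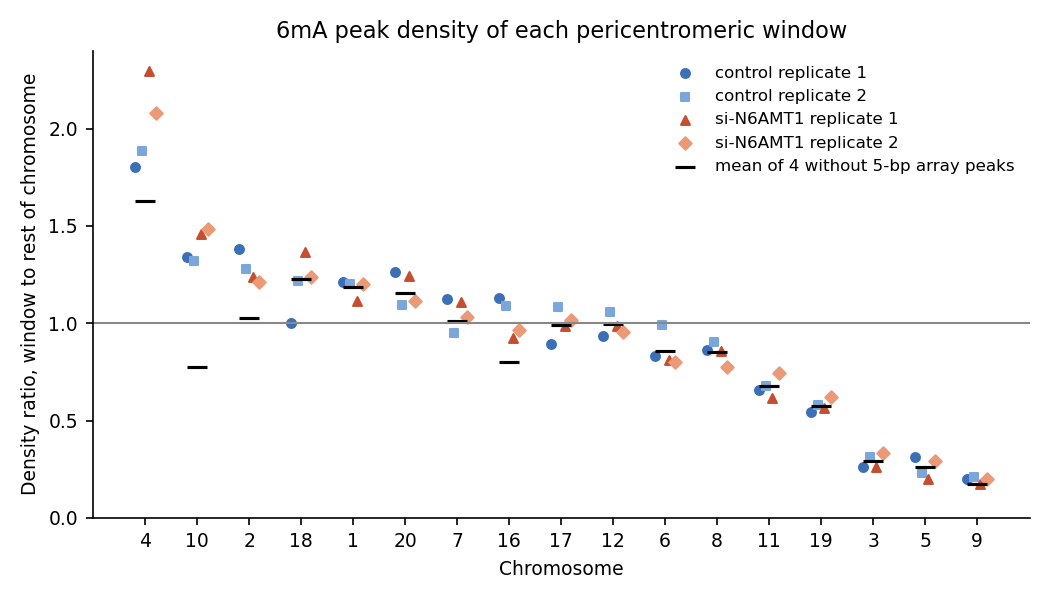
Ratio of the peak density of each pericentromeric window to that of the rest of its chromosome, with 1 point per library, chromosomes ordered by the mean, a grey line at 1 and a dash for the mean without peaks in 5-bp arrays. Chromosome 4 is highest with and without array peaks (mean 2.01 and 1.63), and chromosome 10 falls from 1.40 to 0.774 without them.

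The comparison of the groups asked whether the knockdown changed the number of pericentromeric peaks. The mean was 1033 ± 67.9 in control and 1301 ± 50.9 in si-N6AMT1 (SD, n = 2 each), 1.26 times as many, with both si-N6AMT1 libraries above both control libraries. In the exact two-sided permutation test p was 0.333, the smallest value that 2 libraries against 2 allow, so it cannot reach 0.05. A proxy for depth was also higher in si-N6AMT1. The lowest background in a list, which rises with the number of fragments but also depends on the input used for the call, was 1.05 and 1.36 fragments in the control lists, against 1.41 and 1.53 in the si-N6AMT1 lists, a ratio of means of 1.22. Over all chromosomes the si-N6AMT1 lists held 1.25 times as many peaks. Read totals were not used, and knockdown and depth cannot be told apart in the number of peaks.

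As a share of all peaks, pericentromeric peaks hardly differed between the groups. They made up 3.23% and 3.24% of the control lists and 3.26% and 3.27% of the si-N6AMT1 lists, a difference of 0.0298 percentage points (p = 0.333, exact permutation test). With equal numbers of peaks per library the difference was -0.0115, and with windows of 3 Mb it was -0.0330. The ratio of densities was 0.857 ± 0.0013 in control and 0.866 ± 0.0046 in si-N6AMT1 (SD, n = 2 each), a difference of 0.00878 (p = 0.333, exact permutation test). It too turned sign with equal numbers, to -0.00494, and with windows of 3 Mb, to -0.0210. Both si-N6AMT1 counts lay above both control counts in 13 of 17 windows (76.5%), and in the other 4 windows the counts overlapped. Of 219 stretches of 10 Mb elsewhere on the same chromosomes, taken if they held at least 20 peaks, 85.4% had both si-N6AMT1 counts higher. The windows had no such minimum and held 2.87 to 7 assembled Mb, so the shares do not rest on like counts.

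The classes of sequence did not share evenly in the larger si-N6AMT1 lists. Peaks with no tandem repeat numbered 792 and 897 in control against 1071 and 1133 in si-N6AMT1, 1.30 times as many. Peaks in 5-bp arrays numbered 87 and 79 in control against 85 and 104 in si-N6AMT1, and those in other tandem repeats 106 and 104 against 108 and 100. The groups overlapped in both tandem classes. Tandem repeats thus held 18.3 ± 1.8% of the pericentromeric summits in control and 15.3 ± 0.055% in si-N6AMT1 (SD, n = 2 each), and the exact permutation test gave p = 0.333. Elsewhere in the genome the share was 7.20 ± 0.63% in control and 6.06 ± 0.31% in si-N6AMT1, also lower in si-N6AMT1. The share of summits in 5-bp arrays alone was 8.83% and 7.31% in control against 6.72% and 7.78% in si-N6AMT1, which overlapped (p = 0.667, exact permutation test).

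The array peaks were few in places but long. They gathered in 20 loci, in which neighbouring summits lay within 100 kb, and 16 loci had a peak in all 4 libraries. The 9 loci with at least 10 peaks held 315 of the 355 array peaks (88.7%). The median width of array peaks was 1013 and 1021 bp in control against 968 and 834 bp in si-N6AMT1, against 431 to 439 bp for peaks with no tandem repeat. Array peaks made up 24.6% and 21.2% of the sequence under pericentromeric peaks in control, against 21.6% and 21.3% in si-N6AMT1. Of all window summits, array summits were more often intergenic, at 91.0% against 56.2%.

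The largest locus by peaks was chr4:49093843-49158761, 502 kb from the gap, with 20, 16, 17 and 22 array peaks. They covered 19 and 15.2 kb in control and 25.8 and 24.9 kb in si-N6AMT1, so the groups did not overlap there. The locus held 102 pentamers per kb. Chromosome 10 had 4 such loci, 2 on each side of its gap. The locus chr10:39037439-39152570, 3 kb from the gap, had 15, 7, 15 and 22 peaks, and 1 of its 32 regions was called in all 4 libraries. The locus chr10:42721457-42817087 had 7, 9, 8 and 7 peaks that covered 26.7, 24.6, 26.5 and 26.6 kb, and both of its merged regions were called in all 4. The 2 differed in pattern: short peaks that changed place between libraries in the former and long shared peaks in the latter.

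Long shared peaks were also found at chr2:89850152-89880262 and chr20:29804032-29833327. On chromosome 2 the peaks covered 26.23, 25.9, 28.3 and 28.3 kb of 30.1 kb. On chromosome 20 they covered 28.2, 26.5, 27.1 and 27.0 kb of 29.3 kb, and control replicate 1 called a single peak of 25216 bp, the widest of all pericentromeric peaks. The arrays at chr10:42354979-42378525 and chr17:25263114-25268206 reached the gap itself, with outermost summits 0.354 and 0.301 kb from it. Total coverage by pericentromeric peaks was 664 and 685 kb in control against 820 and 852 kb in si-N6AMT1. Array peaks covered 164 and 145 kb against 177 and 181 kb, so neither total overlapped between the groups. The ratio of means for all pericentromeric peaks was 1.24, near the 1.25 for the number of peaks over all chromosomes. Coverage by peaks elsewhere was not measured. Besides the chromosome 4 and chromosome 2 loci, coverage was higher in both si-N6AMT1 libraries at 2 chromosome 10 loci. It was 5.66 and 5.39 kb against 9.69 and 12.7 kb at the locus 281 kb from the gap, and 12.3 and 13.7 kb against 14.9 and 14.2 kb at the locus beside the gap. At the other large loci the groups overlapped. The lowest background was higher in both si-N6AMT1 lists, and the part of depth in these differences was not tested.

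**Figure D4:**
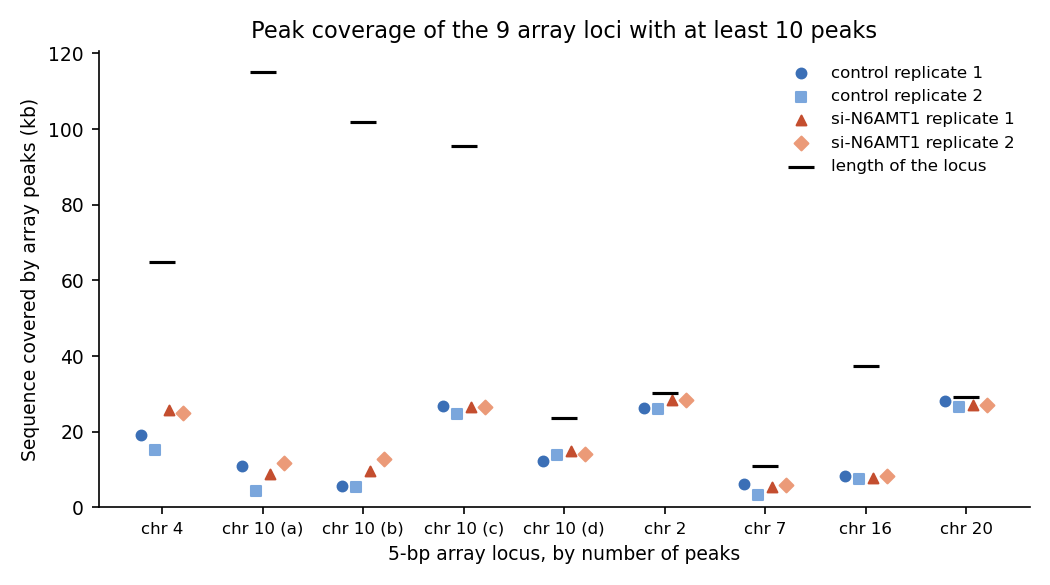
Length of sequence (kb) covered by 6mA peaks at each of the 9 5-bp array loci with at least 10 peaks, ordered by their number of peaks, with 1 point per library and a dash for the length of the locus. The chromosome 2 and chromosome 20 loci were nearly covered in every library, whereas at the first chromosome 10 locus peaks covered 4.42 to 11.8 of 115 kb.

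Replicates were compared first. In control replicates 1 and 2 and si-N6AMT1 replicates 1 and 2, the share of peaks overlapped by the other replicate of the group was higher in the windows than elsewhere by 2.72, 3.32, 0.110 and 0.124 percentage points (p = 0.125, exact sign-flip test). When the overlap had to cover 50% of each peak, the mean difference was -0.00637. Array peaks of the 4 libraries were overlapped in 73.6%, 86.1%, 84.7% and 74.0% of cases, other tandem peaks in 93.3% to 95% and peaks with no repeat in 49.2% to 55.3%. Calls were then compared over the merged regions. Of the 2308 pericentromeric regions, 63 (2.73%) were called in both control and neither si-N6AMT1 library, against 2.62% of all regions of the genome. Both si-N6AMT1 and neither control library called 118 (5.11%), against 5.86% of all regions. All 4 libraries called 410 (17.8%), against 16.7% of all regions. The shares of pericentromeric regions called in a single group were therefore near the background. With equal numbers of peaks per library the order of the groups turned, with 75 regions called in control alone and 69 in si-N6AMT1 alone. Within the windows they varied with sequence. All 4 libraries called 40 of 100 regions in 5-bp arrays, 89 of 114 in other tandem repeats and 281 of 2093 with no tandem repeat. Called in control alone were 1 array region, 1 other tandem region and 61 regions without a repeat. Called in si-N6AMT1 alone were 4, 1 and 112.

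Among the 410 shared regions, both control values of fold enrichment exceeded both si-N6AMT1 values in 91 (22.2%), where 24.3% of all such regions in the genome did. The reverse held for 54 (13.2%), where 16.9% of all did. Both counts lay near the background. In the 40 shared array regions it was 4 in each direction. The median fold enrichment of the 410 regions was 9.28 and 8.81 in control against 8.97 and 8.58 in si-N6AMT1, so the groups overlapped.

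In strength, pericentromeric peaks differed little from the rest. The median fold enrichment was 7.59, 7.19, 7.04 and 6.64 in control replicates 1 and 2 and si-N6AMT1 replicates 1 and 2, and 7.38, 6.91, 6.91 and 6.64 elsewhere. The mean difference of 0.155 ± 0.12 (SD, n = 4) was above 0 in 3 of 4 libraries, with p = 0.25 in the exact sign-flip test. The local background relative to the lowest of the list was 1.11, 1.12, 1.15 and 1.16 in the windows, lower than elsewhere in 4 of 4 libraries, with a mean difference of -0.0767 (p = 0.125, exact sign-flip test). Other tandem repeats held the strongest class, with medians of 10.9, 9.33, 9.82 and 9.69 against 7.65, 7.62, 7.46 and 6.54 in 5-bp arrays and 7.32, 6.91, 6.78 and 6.44 without a repeat. In each class the control replicate 1 value was the highest. The median relative background of array peaks was 1.00 to 1.04, so most array summits stood where the caller had found little or no rise in background. Peaks wider than 2000 bp made up 3.06 ± 0.41% of pericentromeric peaks in control and 2.81 ± 0.27% in si-N6AMT1 (SD, n = 2 each), against 0.326% and 0.307% elsewhere.

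Peaks with a background over 5 times the lowest of their list made up 0.609%, 0.463%, 0.870% and 0.823% of pericentromeric peaks (6, 5, 11 and 11 peaks), against 0.0612% to 0.118% elsewhere. They fell in 13 regions, 4 on chromosome 10 and 9 on chromosomes 2, 4 and 20, such as chr20:29649910-29650892 with a background of 13.3 in control replicate 1 and 16.9 in si-N6AMT1 replicate 2. The 4 of highest background lay on chromosome 10 within 245 kb of the gap. The region chr10:42387046-42387415 had 354 and 387 fragments at its summit over a background of 120 and 143 in si-N6AMT1 replicates 1 and 2, with fold enrichments of 2.94 and 2.69, and was not called in control. Nearby, chr10:42389289-42389710 was called in all 4 libraries, with 108, 125, 131 and 154 fragments over backgrounds of 30.4, 39.6, 41.6 and 45.0 and folds of 3.47, 3.11, 3.10 and 3.37. The region chr10:42599670-42600046 had folds of 2.06 in control replicate 1 and 2.50 and 1.99 in si-N6AMT1. These 3 regions matched themselves best at 26 bp and held 8 to 10 pentamers in 200 bases, as in the sequence printed above. Their central 31 bases occurred 3, 6 and 7 times in the assembled genome. The next by background, chr10:42394027-42394912, had folds of 2.65 in control replicate 1 and 4.83 and 4.40 in si-N6AMT1. The part of the high background in these calls was not tested.

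**Figure D5:**
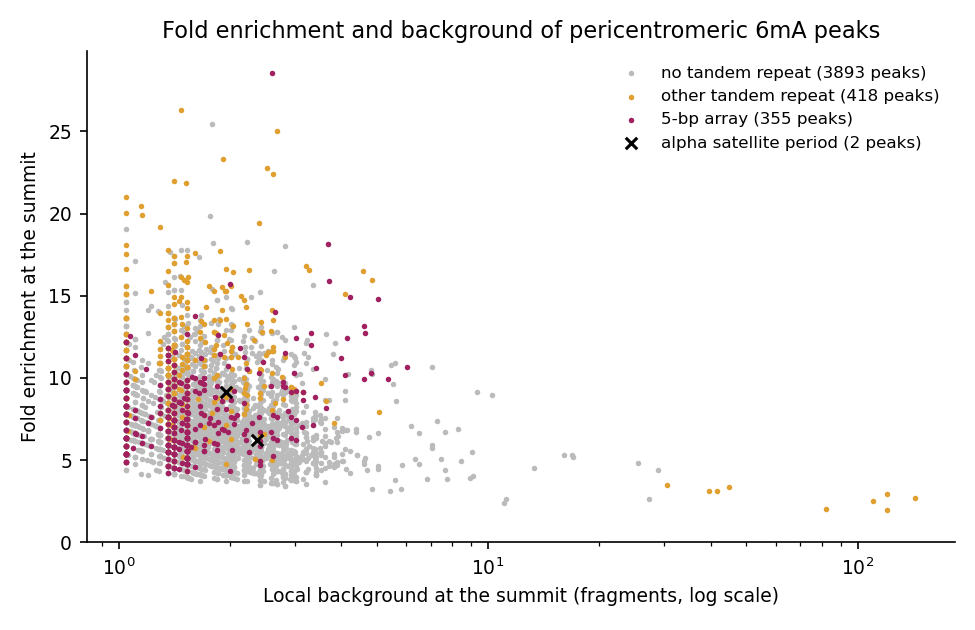
Fold enrichment at the summit against the local background (fragments, log axis) for the 4668 pericentromeric peaks of the 4 libraries, coloured by sequence class. Peaks in 5-bp arrays sit mostly at low background with folds like those of other peaks, and a small set of other tandem repeats reaches backgrounds of up to 143 fragments at folds near 3.

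The regions called in all 4 libraries that ranked highest in this way were these. The EGFR region, chr7:55270639-55272909, had folds of 26.3 and 23.3 in control against 15.1 and 16.8 in si-N6AMT1. Its summit held 64 and 67 fragments in the control libraries against 76 and 70 after knockdown, and its background was 1.47 and 1.92 against 4.09 and 3.22. The raw count of fragments was thus not lower where the fold was. These counts were not scaled for depth, and the lowest background was higher in both si-N6AMT1 lists. The KCNJ12 region, chr17:21310288-21311410, had folds of 22.7 and 16.6 in control against 15.9 and 16.5 in si-N6AMT1. Here too the raw count of fragments was not lower where the fold was. The KCNJ12 summit held 79 and 70 fragments in control against 92 and 91 in si-N6AMT1, over backgrounds of 2.52 and 3.28 against 4.84 and 4.58. The intergenic region chr9:47185946-47188271, an A- and C-rich repeat 130 kb from the gap, had folds of 19.4, 25.0, 28.6 and 22.4. Another, chr2:91737488-91740287, with AGATG as its unit, had 18.1, 13.2, 15.9 and 14.9. In the latter 2 the groups overlapped.

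By the same ranks, the highest regions called in control alone had moderate folds. They were the CNTN1 region, chr12:41297891-41298382, at 9.10 and 10.5, a region in an intron of ZNF514, a zinc finger gene, chr2:95794153-95794668, at 9.76 and 9.73, and a region in an intron of ESCO1, a cohesin acetyltransferase gene, chr18:19133659-19134094, at 8.96 and 10.2. In si-N6AMT1 alone, besides the chromosome 10 region above, they were chr12:38533595-38534098, at 10.0 and 9.96, and chr7:54935350-54935800, at 7.77 and 10.3. Their summits held 18 to 41 fragments. Regions nearest to a gap and called in all 4 libraries were the chromosome 10 and chromosome 17 arrays printed above and chr12:37856914-37857550, which has no tandem repeat, lies 0.583 kb from the gap and had folds of 7.12, 11.4, 11.3 and 11.9.

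The windows also hold genes, and 634 protein-coding genes overlapped them. A pericentromeric summit lay in 262 of these, and a region called in all 4 libraries in 84. By annotation, 56.6 ± 0.57% of summits in control and 55.8 ± 2.7% in si-N6AMT1 were intergenic (SD, n = 2 each), 40.2 ± 0.78% and 41.4 ± 2.6% intronic and 2.82 ± 0.32% and 2.54 ± 0.099% within 1000 bp of a start site. The exact permutation tests of these shares gave p = 1, 1 and 0.667. The grid positions of the windows were 54.6% intergenic, 39.8% intronic and 2.75% promoter. Exons held 0.384% and 0.231% of summits against 2.84% of grid positions.

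PRIM2, which encodes the large subunit of DNA primase, and EGFR had the most regions called in all 4 libraries, with 4 each. PRIM2 had 9, 11, 9 and 11 called regions over 334 kb, but the summits of 3 of its 4 shared regions carried sequence found 12 to 152 times in the genome, so their place is uncertain. EGFR had 6, 6, 5 and 5 over 193 kb, with 1 genomic copy at each shared summit. In a second EGFR intron region, chr7:55163204-55163886, the folds were 16.5 and 15.6 in control against 10.9 and 10.8 in si-N6AMT1. Another, chr7:55135470-55135983, had 9.96 and 9.07 against 8.97 and 10.2, which overlapped. The remaining EGFR region, chr7:55234121-55235510, had 12.6 and 9.51 against 9.30 and 6.62. CPNE8, a copine gene, NOTCH2, a receptor of the Notch pathway, BPIFB4, a gene of the BPI fold family, and CPD, carboxypeptidase D, had 3 each. The shared CPNE8 summits carried sequence of 1, 5 and 453 copies and those of NOTCH2 of 1, 18 and 1, so the place of some is uncertain. Those of BPIFB4 and CPD had 1 or 2 copies. The CPD region chr17:28754556-28755132 had folds of 15.3 and 14.9 in control against 13.2 and 11.6 in si-N6AMT1. At the other shared CPD regions the groups overlapped, with 6.06 and 5.95 against 5.92 and 5.96, and 9.84 and 11.1 against 7.93 and 10.8. Over all regions of the genome called in 4 libraries, both control folds were the higher ones in 24.3% and both si-N6AMT1 folds in 16.9%. ENSG00000282278 on chromosome 4 and SPIDR, a DNA repair gene on chromosome 8, had 2 each over 917 and 475 kb. Other genes, such as KHDRBS2 and GABRB1, had 2 as well. They had fewer regions called in any library, 13 and 12 against 30 and 21. Both shared SPIDR summits carried sequence of over 1000 copies (1622 and 1227).

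Promoters of 7 protein-coding and 12 long noncoding RNA genes held a region called in all 4 libraries. The highest mean fold was that of FOXS1, a forkhead transcription factor gene, 376 bp from a start site, with folds of 18.2, 12.8, 18.2 and 15.2. The groups overlapped there. The BPIFB4 region, 637 bp from a start site, had 14.4 and 12.6 in control against 7.79 and 8.88 in si-N6AMT1. A region 36 bp from the start of ENSG00000273406, a long noncoding RNA gene, lies also in NOTCH2 and had 14.8 and 11.9 against 8.64 and 10.5. In both the control values lay above the si-N6AMT1 values, as in 5 of the 18 promoter regions, while in 3 of the 18, among them that of DEFB116, both si-N6AMT1 values were the higher ones. Among all regions called in 4 libraries these shares were 24.3% and 16.9%. The others were the beta-defensin genes DEFB116 (7.32, 6.81, 10.7 and 7.96) and DEFB119 (6.57, 10.2, 7.29 and 7.11), the olfactory receptor gene OR5AP2 (10.9, 10.1, 12.1 and 9.20), NIPSNAP2 (13.2, 7.61, 11.6 and 10.97) and PRKDC, which encodes the catalytic subunit of DNA-dependent protein kinase (8.26, 7.43, 7.59 and 7.52). None of these promoter regions of protein-coding genes was classed as a tandem repeat.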

How the data were processed

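6mA-IP-seq peak lists of 4 immunoprecipitated libraries (2 control, 2 si-N6AMT1, grouped by sample title) were analysed. According to the submitters' processing notes and the study's methods, trimmed reads (Trimmomatic) were mapped to hg19 by Bowtie2 2.3.5, stripped of duplicates by SAMtools 1.9 and passed to MACS2, which called each library at p 1e-05. Which input entered a call is not given in the sources used here. In the deposited lists the score is 10 times the −log10 p, the fold is a ratio of fragments to local background with 1 added to each, and −log10 p and −log10 q belong to the summit. The authors' fold and −log10 p together give the fragments and the background, and these were solved for at each summit. Read totals were not used. Median pileups at summits were 17 to 19 fragments, so counting error can decide a call at the threshold.

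Windows were 5 Mb to each side of 17 centromere midpoints. Sequence came from the GRCh37 primary assembly and genes from GENCODE v44lift37. Sequences are printed for a selection of regions, and 1 further item is not reported here. An annotation of repeats was not used, and classes rest on self-match alone: 5-bp arrays matched best, of shifts up to 20 bp, at a multiple of 5, and the alpha satellite-period class best near that repeat's unit length. Copies were exact matches of the 31 bases at the summit. Peaks sharing 1 bp were merged. Values per library were compared by exact two-sided permutation (groups) or sign-flip tests (windows against elsewhere). Members and lists were chosen with earlier results of these data known. Named regions were the highest by within-list rank of −log10 q among those called in 1 group (3 each) or all 4 libraries (4), the 4 of highest background and the 3 nearest a gap. Named genes were the 8 with most regions called in all 4 libraries, and genes with such a region within 1000 bp of a start. Among genes tied for the last of the 8 places, those with more regions called in any library were named. The study tested signal with bdgdiff, which needs signal tracks and was not run. Other settings tried were 3 Mb windows, −log10 q of 5 or more, lists cut to equal numbers, no high-background peaks, 50% overlap, a lag identity of 0.6, each library left out and a replicate block. Python 3.11.15 with numpy 2.4.6, pandas 2.3.3, scipy 1.17.1, numba 0.67.0 and matplotlib 3.10.9 was used, and scripts were tested on simulated data.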

Additional observations from a re-analysis of the deposited data

How the results depend on the processing

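Of 103 values under alternative settings, 86 kept their direction and, for counts, lay within 1.5 times the reported value. The difference in the percent of peaks that are pericentromeric turned to -0.0115 with equal numbers and -0.0330 with 3 Mb windows, and that of the density ratio to -0.00494 and -0.0210. The overlap by the other replicate turned to -0.00637 with 50% overlap. The cause was not tested. Smaller windows hold fewer regions, and 3 Mb gave 22 regions in control alone, 40 in si-N6AMT1 alone and 190 shared by all 4. Equal numbers gave 69 only in si-N6AMT1 instead of 118 and 75 only in control instead of 63, so the order of the groups turned. Leaving out a library in turn relaxes the rule: 114 to 289 regions were then called only in control, 205 to 522 only in si-N6AMT1. Without arrays the excess of tandem summits fell from 10.2 to 3.82 percentage points, and with 3 Mb windows it was 18.5. At a −log10 q of at least 5 the group differences in percent and density ratio shrank to 0.00411 and 0.00114 (p = 1, exact permutation test).

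Without each library in turn, the difference in peak number ranged from 220 to 316, that in percent from 0.0212 to 0.0383, that in the density ratio from 0.00549 to 0.0121, and that in tandem share from -4.30 to -1.72. The density ratio was 0.859 to 0.863, the fold difference 0.112 to 0.208 and the replicate overlap 0.117 to 3.02. The labels tie same-numbered libraries by number only, and whether these shared a batch was not tested. Their deviations correlated at -0.00428 over 1898 regions. Their deviations in fold correlated at 0.0821 over the pericentromeric regions called in all 4 libraries. With a replicate block the differences were 268 peaks, 0.0298 percentage points, 0.00878 and -3.01, each with p = 0.5 in the exact sign-flip test, the smallest for 2 pairs, so no call changed. With about 17 to 18 fragments at a median summit, weak or repeated sequence can go uncalled.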

Other observations

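Peaks of the 5-bp class, which takes any best shift that is a multiple of 5 bp, were also called outside the pericentromeric windows. Chromosome 21, for which no window was set, had 10 and 15 such peaks in control against 10 and 7 in si-N6AMT1. Of these 42, 24 held at least 5 pentamers (CATTC or GAATG) in the 200 bases centred on the summit. On the Y chromosome sequence 5, 8, 7 and 7 were placed, and all 27 held at least 5. Whether the reads of these peaks came from the sequence on which they were placed was not tested. On chromosome 12, by contrast, 79 peaks of this class lay outside the window and 10 of them held 5 pentamers. On chromosome 2 it was 2 of 55.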
